A study of Schizosaccharomyces pombe with 4 samples.

Results

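The genes described here lie at the right end of chromosome I of the fission yeast Schizosaccharomyces pombe. They are the genes whose systematic names place them on the cosmids (cloned stretches of the genome) SPAC1039, SPAC869, SPAC186 and SPAC750, with SPAC186.01, SPAC186.09, SPAC869.10c, SPAC869.11 and SPAC1039.09 left out, and they number 34 of the 6986 genes of the deposited table. All are annotated as coding. In the order of the annotation SPAC1039 with 10 genes is innermost, SPAC869 follows with 9, SPAC186 with 7 and SPAC750, with 8, reaches the chromosome end. The rows of the deposited table stand in the same order.

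RNA was sequenced from 4 libraries of asynchronous cells in log phase in YEA medium at 30 °C. The strain WT972, wild type in genotype (WT), gave 2 libraries, and the strain SPKK1227 of genotype set2d, a deletion of the gene set2, gave the other 2. No further allele or treatment is named, the deletion is represented by 1 strain, and whether replicates were grown separately is not stated. The tests below weigh differences against the scatter of these libraries, part of which may be technical. The set2 transcript, a check of the labels, was at 10503 and 8665 normalized counts in WT and at 2257 and 1448 in set2d (log2 change -2.40, SE 0.22, limma adjusted p = 0.00041). It fell in both set2d libraries but stayed far above the floor described next. Which part of the gene is deleted is not stated, and the value is not limited to that part. Values are the authors' normalized read counts, raised to a floor of 10 where lower, and those of a gene and of another that overlaps it on the opposite strand may share reads.

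Set2 methylates histone H3 on the body of transcribed genes, at the residue known as H3K36, a mark that recruits histone deacetylation and keeps transcription from starting inside genes. The chromosome ends of fission yeast carry heterochromatin, marked by the methyltransferase Clr4 and bound by the HP1 protein Swi6. Next to it lies a subtelomeric zone of compacted chromatin whose formation depends on Set2 and on the shugoshin Sgo2. Genes there include many for the uptake and breakdown of nutrients, most of them weakly transcribed in growing cells, and families of genes shared between chromosome ends.

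Most of the genes rose in set2d, and changes were larger nearer the end. By limma at an adjusted p under 0.05, 24 of the 34 were higher and 0 lower, where 11.6% of all 6633 genes tested were higher and 2.77% lower. Of the 30 tested, 28 had both set2d libraries above both WT libraries, as did 31.5% of all genes tested. Before adjustment 27 had p under 0.05 and a positive change and 0 a negative one, and fitting limma with no trend gave 23 and 0. In these bulk samples more cells transcribing a gene and more RNA of it per cell cannot be told apart. Another 6 did not pass and 4 were at the floor in every library and could not be tested. On the log2 scale the median change of the 30 tested was 2.87, from 0.03 to 6.84, and that of all genes tested was 0.01. Of the 30, 3 entered the test through their set2d libraries alone, being at the floor in both WT libraries. These 3 are among the 28 with separated groups, which the filter fixed for them in advance, and they could not have been lower. Among the other 27, 21 were higher. With genes at the floor in all libraries kept in the fit, 15 members were higher. The 9 calls lost were 4 on SPAC1039, 4 on SPAC869 and that of SPAC750.03c, with adjusted p between 0.0504 and 0.102 at the same changes, and the call of set2 was lost there too (adjusted p = 0.0607), as were those of several genes outside the rule named further on, with adjusted p of 0.0543 to 0.147.

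By cosmid, the median change was smaller on SPAC1039 than on SPAC869, and smaller there than on the outer pair, though single genes overlapped: SPAC1039.02 at 1.90 exceeded sul2 at 1.44 and yhb1 at 1.20 on SPAC869. On SPAC1039 4 of 10 genes were higher, with a median log2 change of 0.50. On SPAC869 it was 9 of 9, median 2.65. On SPAC186 it was 7 of 7, median 5.43, and on SPAC750 all 4 that could be tested, median 5.33. There the changes of SPAC750.03c, SPAC750.06c and ftm4 (SPAC750.05c) are lower bounds set by the floor. SPAC750.03c and SPAC750.06c entered the test through set2d alone. With a pseudocount of 50 the changes were 1.87 to 6.04 on SPAC750, 2.84 to 5.42 on SPAC186 and 0.69 to 3.97 on SPAC869. From SPAC869.09 outwards the 20 tested members passed without a break, 17 of them above the floor in at least 1 WT library. Within library number 1 the medians were 0.50, 2.68, 4.75 and 5.02 from the inner to the outer cosmid, and within number 2 they were 0.46, 2.62, 6.09 and 5.70. The order of SPAC1039, SPAC869 and the outer pair was thus the same in both numbers, while that of SPAC186 and SPAC750 was not. Across the 30 tested members the log2 change had a Spearman rho of 0.85 with the order along the chromosome. This is a description over neighbouring genes measured in the same 4 libraries.

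**Figure D1:**
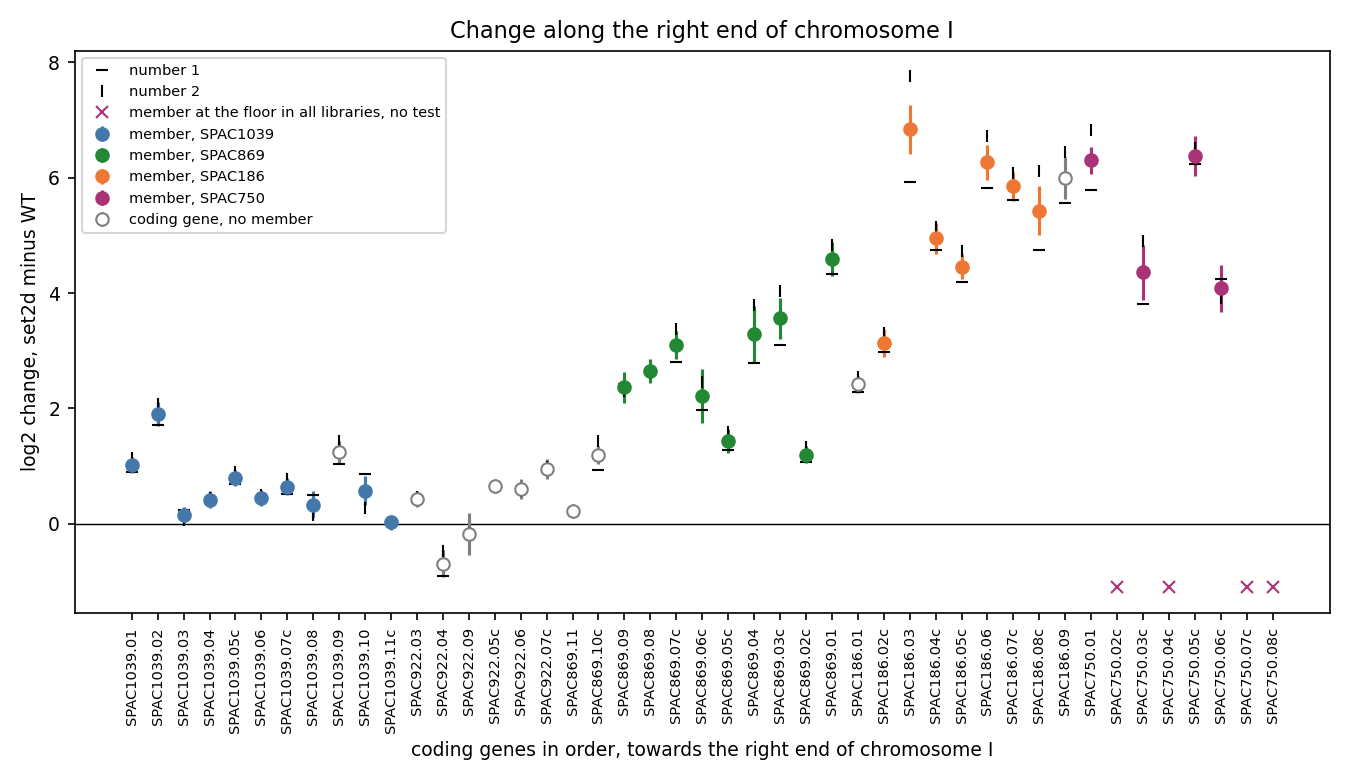
Log2 change (set2d minus WT, vertical axis) of the coding genes of the stretch in chromosomal order (horizontal axis), filled circles for members by cosmid and open circles for other coding genes, with bars of 1 SE from limma and ticks for the change within library numbers 1 and 2. The members of SPAC1039 lie between 0.03 and 1.90, those of SPAC186 between 3.13 and 6.84, and the 4 crosses at the bottom mark members at the floor in all libraries, which have no value.

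The innermost cosmid, SPAC1039, holds genes that in WT had from 690 to 16100 normalized counts per kb of gene, between the 17.6 and the 90.8 percentile of all genes. SPAC1039.02, annotated as a phosphoprotein phosphatase, was at 28289 and 35421 normalized counts in WT and at 93277 and 149937 in set2d. It is the most changed gene of this cosmid (log2 change 1.90, SE 0.21, limma adjusted p = 0.001), with no overlap between groups. The amino acid permease gene SPAC1039.01, at the inner edge, was at 4056 and 3997 in WT and at 7554 and 8813 in set2d (log2 change 1.02, SE 0.14, adjusted p = 0.00235). Both libraries of set2d again lay above both of WT. The gene klf1, for a transcription factor of the zinc cluster type, was at 3763 and 3464 in WT and at 6059 and 6455 in set2d. SPAC1039.07c, for an alanine-glyoxylate transaminase, which moves amino groups between alanine and glyoxylate, was at 3379 and 3234 in WT and at 4819 and 5501 in set2d. These changes, of 0.79 and 0.64, passed with all 4 libraries at adjusted p = 0.00733 and 0.0238. That of klf1 was 0.73 without WT replicate 2 (adjusted p = 0.0745), 0.84 without set2d replicate 1 (0.0594) and 0.75 without set2d replicate 2 (0.0629). That of SPAC1039.07c did not pass without any one of the 4 libraries. It had adjusted p = 0.13 (log2 change 0.67) and 0.213 (0.61) when WT replicate 1 or 2 was left out, and 0.0698 (0.74) and 0.0892 (0.54) when set2d replicate 1 or 2 was. It also missed the threshold by limma without a trend (adjusted p = 0.052). The non-coding RNA SPNCRNA.1085 overlaps 78.1% of it on the opposite strand.

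The other 6 genes of SPAC1039 did not pass. In 4 of them both set2d libraries lay above both WT libraries, as in 31.5% of all genes tested. In a fit with a replicate block, which groups same-numbered libraries, SPAC1039.04, SPAC1039.06 and mmf2 passed (limma adjusted p = 0.00654, 0.00208 and 0.00464). Whether same-numbered libraries are paired is not stated. The carboxylic acid transporter gene SPAC1039.04 was at 3602 and 3287 in WT and at 4758 and 4447 in set2d (log2 change 0.42, SE 0.15, limma adjusted p = 0.102). SPAC1039.06, for a D-serine ammonia-lyase, an enzyme that frees ammonia from an amino acid, was at 5195 and 4553 in WT and at 6792 and 6384 in set2d (0.44, SE 0.14, adjusted p = 0.0734). The groups did not overlap in either gene. SPAC1039.08, for a serine acetyltransferase, which acts in cysteine synthesis, was at 805 and 755 in WT and at 1132 and 846 in set2d (0.33, SE 0.23, adjusted p = 0.406), and SPNCRNA.1086 covers 100% of it on the opposite strand. The gene mmf2, for a protein of isoleucine synthesis, was at 777 and 1186 in WT and at 1417 and 1431 in set2d (0.57, SE 0.25, adjusted p = 0.174). For both, single libraries set the size, which for SPAC1039.08 was 0.12 when set2d replicate 1 was left out and 0.54 when set2d replicate 2 was, and for mmf2 was 0.26 with WT replicate 1 left out and 0.87 with WT replicate 2 left out. The esterase/lipase gene SPAC1039.03 had 6363 and 5934 in WT and 7440 and 6224 in set2d, and its groups overlapped (0.15, SE 0.14, adjusted p = 0.543, with 0.02 if set2d replicate 1 is dropped, 0.28 if set2d replicate 2 is and 0.10 if WT replicate 2 is). The alpha-glucosidase gene gto1, at the outer edge of the cosmid, had 6095 and 6662 in WT and 6284 and 6780 in set2d. SPNCRNA.1087 overlaps 60.3% of it on the opposite strand, and gto1 itself overlaps 38.2% of mmf2. The 4 values of gto1 interleave (log2 change 0.03, SE 0.13, adjusted p = 0.899), and its change was between -0.03 and 0.10 with any single library dropped and -0.04 under quantile normalization.

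On SPAC869 each of the 9 members rose, and an amidase gene and a urea transporter gene had its 2 largest changes. The amidase gene SPAC869.01, whose product releases ammonia from amides, was at 112 and 70.5 normalized counts in WT and at 2257 and 2023 in set2d, a 24.0-fold difference (log2 change 4.59, SE 0.30, limma adjusted p = 7.84e-05). The urea transporter gene SPAC869.03c was at 118 and 59.2 in WT and at 1010 and 968 in set2d (log2 change 3.56, SE 0.36, adjusted p = 0.000594). In both, WT replicate 1 lay above WT replicate 2 and the groups stood far apart. SPAC869.04, for a formamidase-like protein, was close to the floor in WT, at 26.2 and 11.4, and at 181 and 158 in set2d (log2 change 3.29, SE 0.48, adjusted p = 0.00326). Its change was 3.19 (adjusted p = 0.0698) with set2d replicate 1 dropped and 3.39 (adjusted p = 0.0572) with set2d replicate 2 dropped. The formamidase-like and urea transporter genes are neighbours in the order of coding genes.

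Of the remaining genes of SPAC869, mel1 encodes a melibiase, a secreted enzyme that cuts galactose from the sugar melibiose. It was at 222 and 179 normalized counts in WT and at 1558 and 1874 in set2d (log2 change 3.10, SE 0.25, limma adjusted p = 0.000209). The gene pcm2, for a methyltransferase that repairs damaged aspartyl residues of proteins, was at 442 and 395 in WT and at 2832 and 2431 in set2d (log2 change 2.65, SE 0.21, adjusted p = 0.000198). Neither gene had overlapping groups. The change was 2.37 for SPAC869.09, of the Con-6 family, 82.1% of which is overlapped by SPNCRNA.1093 on the opposite strand. It was at least 2.21 for hry1, for a cation-binding HHE domain protein, which was at the floor in both WT libraries and at 39.3 and 54.7 in set2d. In set2d replicate 1 that level stood for 37 reads, and with a pseudocount of 50 the change was 0.69 (adjusted p = 0.0545). Smaller changes were also found for the 2 members with the highest WT level per length on this cosmid. The sulfate transporter gene sul2, with 1430 normalized counts per kb in WT, changed by 1.44, and yhb1, for a dioxygenase that detoxifies nitric oxide, with 5050 per kb, by 1.20. The value of sul2 was 1.13 with set2d replicate 2 left out, at adjusted p = 0.051.

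**Figure D2:**
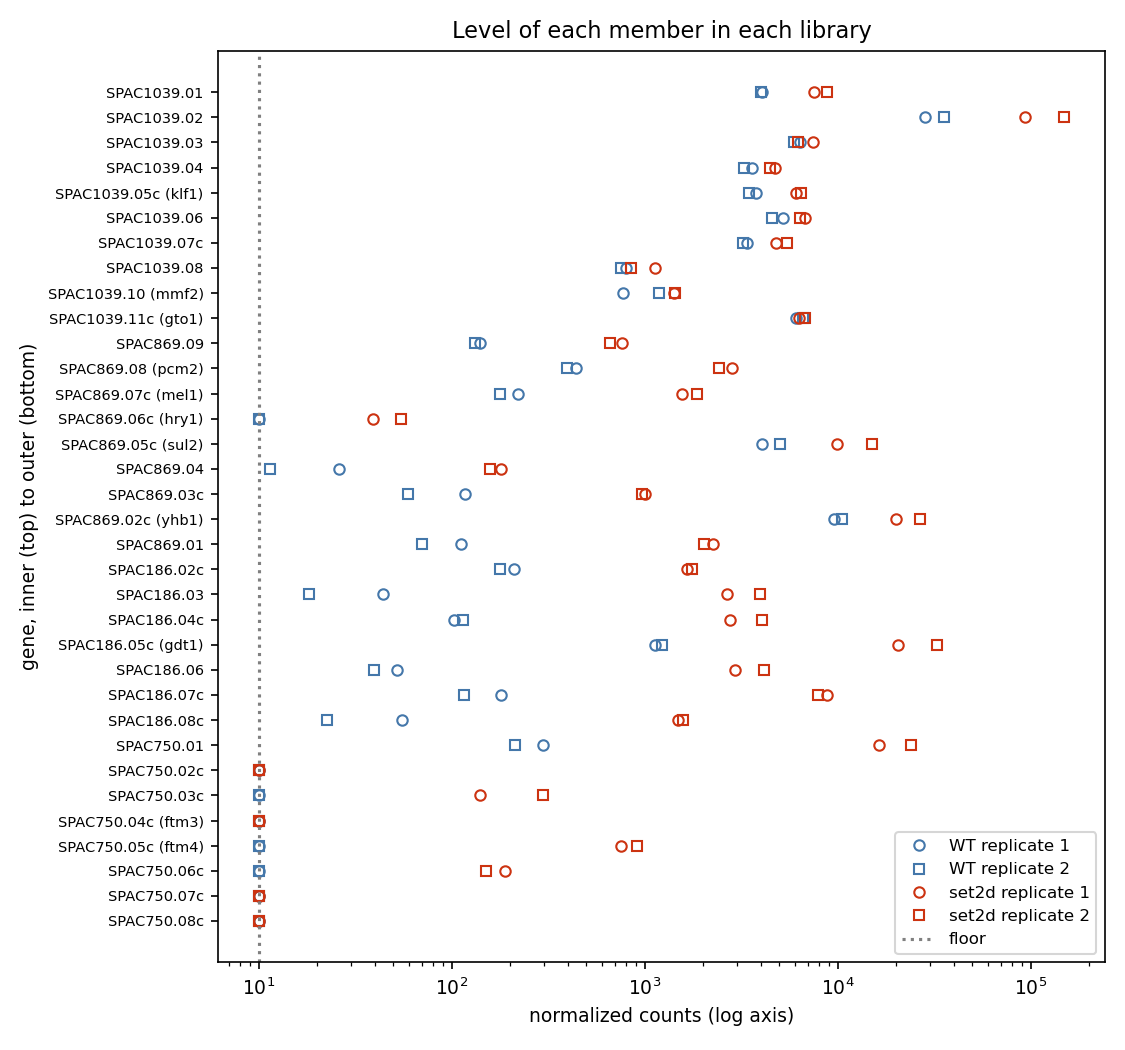
Normalized counts (log axis) of each of the 34 genes in each library, from the innermost gene at the top to the outermost at the bottom, WT in blue and set2d in red, with the floor of 10 as a dotted line. Red and blue symbols lie close together on SPAC1039 and far apart on SPAC186, and 4 genes of SPAC750 have all 4 symbols on the floor.

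SPAC186 carries the largest increase of the whole table, that of SPAC186.03, annotated as an L-asparaginase, which splits asparagine into aspartate and ammonia. It was at 44.0 and 18.3 normalized counts in WT and at 2660 and 3946 in set2d (log2 change 6.84, SE 0.43, limma adjusted p = 7.14e-05), and its change was 5.92 in number 1 and 7.76 in number 2. Other members had the larger value with WT replicate 2 left out (ftm4, 6.38) and with a pseudocount of 50 (SPAC750.01, 6.04 against 5.36). The sequence of SPAC186.03 is partly repeated elsewhere in the genome, and how reads with several matching places were counted is not stated. The isomerase gene SPAC186.06 was at 52.1 and 39.7 in WT and at 2944 and 4175 in set2d, a 77.1-fold difference (log2 change 6.27, SE 0.30, adjusted p = 2.33e-05). For both genes the lower set2d value was more than 50 times the higher WT value.

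A pair of dehydrogenase genes, the outermost members on the cosmid, had changes of 5.85 and 5.43. SPAC186.07c, for a hydroxyacid dehydrogenase, was at 180 and 116 normalized counts in WT and at 8787 and 7923 in set2d (log2 change 5.85, SE 0.25, limma adjusted p = 1.66e-05). The non-coding RNA prl61 (SPNCRNA.61) overlaps 40.9% of it on the opposite strand, so part of these reads may be from that RNA. SPAC186.08c, for an L-lactate dehydrogenase, which interconverts lactate and pyruvate, was at 55.6 and 22.7 in WT and at 1494 and 1573 in set2d (log2 change 5.43, SE 0.43, adjusted p = 0.000185). Its set2d libraries were close together and its WT libraries apart. SPAC186.04c, an uncharacterized gene, was at 103 and 115 in WT and at 2759 and 4078 in set2d (log2 change 4.95, SE 0.27, adjusted p = 4.52e-05). The other members of the cosmid, gdt1 and the hydroxyacid dehydrogenase gene SPAC186.02c, the innermost member on it, changed by 4.46 and 3.13. The budding yeast counterpart of gdt1 transports calcium and manganese into the Golgi.

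SPAC750 begins with the aldo/keto reductase gene SPAC750.01, which was at 299 and 213 normalized counts in WT and at 16448 and 24052 in set2d (log2 change 6.30, SE 0.24, limma adjusted p = 1.37e-05). In set2d replicate 1 this level stood for about 15488 reads. That number is an extrapolation, since single reads were resolved in this library only for levels checked up to 400 normalized counts. Beyond it the genes belong to families repeated at several chromosome ends, and 3 of them came off the floor in set2d. The gene ftm4 (SPAC750.05c), for a protein with transmembrane helices, was at the floor in WT replicate 1, just above it in WT replicate 2, and at 756 and 915 in set2d, with a log2 change of at least 6.38 (SE 0.35, adjusted p = 4.52e-05). The methyltransferase gene SPAC750.03c was at the floor in both WT libraries and at 140 and 299 in set2d, at least 20.5-fold higher (adjusted p = 0.000823). SPAC750.06c, of the S. pombe-specific DUF999 family, was at the floor in both WT libraries and at 190 and 151 in set2d, at least 16.9-fold higher (adjusted p = 0.000527). For ftm4 both set2d libraries stood clear of WT. SPAC750.03c and SPAC750.06c entered the test through set2d alone, so for them this was fixed in advance.

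The transporter gene SPAC750.02c, ftm3 (SPAC750.04c), SPAC750.07c and the malic enzyme gene SPAC750.08c were at the floor in all 4 libraries. They are also the 4 members with no sequence of their own. Cut into windows of 50 bases, 0% of each of these 4 genes was found once in the reference genome, against 100% of each of 25 members. The other 5 members were in between, with 67.2% for SPAC750.01, 38.0% for SPAC186.03, 14.7% for SPAC750.03c, 8.22% for SPAC750.06c and 7.63% for ftm4. Over the table, 198 of 219 genes with no window of their own were at the floor in all libraries, or 90.4%, against 0.931% of 6340 genes in which every window was found once. How reads with several matching places were counted is not stated in these sources. For these 4 genes, a value at the floor therefore does not show that they were silent in set2d.

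**Figure D3:**
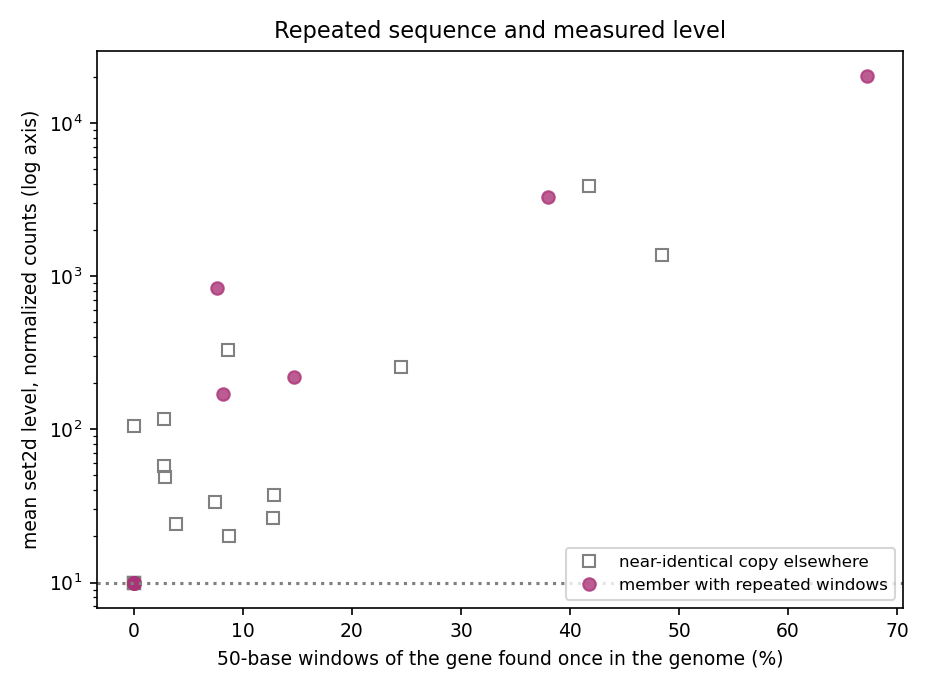
Share of 50-base windows found once in the genome (horizontal axis, %) against the mean set2d level (vertical axis, normalized counts, log axis), with the floor dotted. Circles mark the 9 members with repeated windows, and squares the 20 near-identical copies that 8 of these members have elsewhere. The 4 members without a window of their own lie on the floor.

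Near-identical copies, with at least 95% identity over at least 50% of the gene, were found for 8 members, 7 of them on SPAC750. All 20 copies lay within 100 kb of the other ends of chromosomes I and II. Of these 20, 13 could be tested, with 8 higher and 0 lower by limma, beside the 11.6% and 2.77% of all genes tested. Several of the 13 were at the floor in both WT libraries, entered the test through set2d alone and could not have been lower. Of those, SPBC1348.05, SPAC212.09c and SPBCPT2R1.07c were higher, and SPBPB2B2.17c, SPBC1348.03 and SPBCPT2R1.06c did not pass. The 8 became 5 with set2d replicate 2 left out, 5 with a pseudocount of 50, 3 of 4 tested with only genes above the floor in all libraries, and 1 with genes at the floor throughout kept in the fit, settings applied to the copies after their values were seen. Among them were copies of each of the 4 members at the floor. SPAC977.02, at the left end of chromosome I and 100% identical to ftm3 over the matched length, was at 12.4 normalized counts and at the floor in WT and at 143 and 371 in set2d (log2 change 4.37, SE 0.52, limma adjusted p = 0.00127). SPBCPT2R1.07c, a right-end gene of chromosome II that is 100% identical to SPAC750.08c, had both WT values at the floor, with 155 and 78.2 in set2d, a log2 change of at least 3.46 (adjusted p = 0.00261). SPBC1348.05, on the left arm of chromosome II and 99.9% identical to SPAC750.02c, had both WT values at the floor, with 57.3 and 39.9 in set2d, a change that passed (adjusted p = 0.0154) but did not with a pseudocount of 50 (0.0505). In SPAC977.02 both set2d libraries were above both WT libraries. SPBCPT2R1.07c and SPBC1348.05 entered the test through set2d alone, so for them this order was fixed in advance. For SPAC750.07c, the 2 copies with 100% identity did not pass (SPAC212.12 with 1.57, adjusted p = 0.0833, and SPBCPT2R1.06c with 0.98, adjusted p = 0.257), while SPAC212.08c with 96.3% identity was at 132 and 74.3 in WT and at 1626 and 1139 in set2d (log2 change 3.78, SE 0.35, adjusted p = 0.00041). Which copy gave the reads of such a family is uncertain.

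Some relatives at other ends differed from members in how strongly they were expressed in WT, and others did not. For SPAC750.06c, at 11.1 normalized counts per kb in WT, SPBPB2B2.07c, SPAC977.06, SPBPB2B2.14c and SPBC1348.07 were as low, at 12.7, 21.8, 13.5 and 10.9. Its relative SPAC212.04c was at 588. The L-asparaginase gene SPBPB21E7.09 at the left end of chromosome II is 96.3% identical to SPAC186.03, and was at 1627 and 1905 normalized counts in WT and at 3290 and 4470 in set2d (log2 change 1.12, SE 0.20, limma adjusted p = 0.00787). Per kb its WT level was 1330 against 24.8 for SPAC186.03, and its set2d level 2920 against 2630. Its change was 0.90 (adjusted p = 0.0727) with set2d replicate 2 left out. SPAC977.14c at the left end of I, 92.7% identical to SPAC750.01, was at 47163 and 65272 in WT and at 100806 and 136808 in set2d (1.08, SE 0.19, adjusted p = 0.00781). Its WT level per kb was 45700 against 234, and the call was lost with either set2d library dropped (adjusted p = 0.0624 at a change of 1.30 and 0.0901 at 0.86) and by limma without a trend (0.0556). The opposite order held for the phosphatase genes. SPBPB2B2.06c at the right end of II, 82.4% identical to SPAC1039.02, was at 489 and 432 in WT and at 15545 and 19835 in set2d (5.26, SE 0.18). There the member had the higher WT level per kb, 16100 against 215. The malic enzyme gene SPCC794.12c on chromosome III, 88.9% identical to SPAC750.08c and over 100 kb from an end, fell from 237090 ± 1530 to 105234 ± 28100 (SD, n = 2 each; log2 change -1.20, SE 0.18, adjusted p = 0.00361). The differences between members and relatives were not tested.

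The members can also be arranged by role, beside the 11.6% higher and 2.77% lower of all genes tested. Of 6 oxidoreductase genes, namely those for both hydroxyacid dehydrogenases, the lactate dehydrogenase, the aldo/keto reductase, yhb1 and the malic enzyme gene SPAC750.08c, 5 were tested and 5 were higher, with a median log2 change of 5.43. All 5 lie on the outer cosmids, where 20 of 20 tested members were higher. Of 7 genes for enzymes of nitrogen and amino acid metabolism 4 were higher, by 0.64 for the transaminase and by 3.29 to 6.84 for the formamidase-like protein, the amidase and the asparaginase. The other 3, SPAC1039.06, SPAC1039.08 and mmf2, lie on the inner cosmid and did not pass, though SPAC1039.06 and mmf2 did with the replicate block. Of 5 transporter genes 3 were higher, those for amino acids, sulfate and urea, 1 did not pass and 1 was at the floor throughout. Of 2 sugar hydrolase genes mel1 was higher and gto1 was not called.

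Per length, many members moved from the bottom of the range of all genes towards its middle. Those of SPAC1039 were already between the 17.6 and the 90.8 percentile in WT. In WT, 18 of the 34 lay in the lowest 10% of 6840 genes by mean normalized counts per kb, and 3 in the upper 50%. The 18 include the 4 genes with no window of their own, whose floor values do not show silence. They also include SPAC186.03, SPAC750.03c, ftm4 and SPAC750.06c, with at most 38.0% of windows found once. In set2d 7 lay in the lowest 10%, 4 of them the genes at the floor throughout, and 12 in the upper 50%. SPAC750.01 rose from 234 to 18500 normalized counts per kb, from the 10.9 to the 91.5 percentile, and gdt1 from 816 to 18400, from the 19.4 to the 91.5 percentile. SPAC186.07c rose from 148 to 8360 per kb and SPAC186.06 from 45.9 to 3560. The medians over all genes were 2790 in WT and 2890 in set2d, so these 4 members ended above the set2d median. The gene ftm4 had a lower value, with 7.37 per kb in WT, set by the floor, and 614 in set2d. Only 7.63% of its windows were found once in the genome. How reads with several matching places were counted is not stated, so 614 may understate or overstate its level. The same limit holds for the level of SPAC750.01, with 67.2% of windows found once. Across the 30 tested members the Spearman rho of the order along the chromosome with the level per kb was -0.74 in WT and -0.17 in set2d, and that of the log2 change with the WT level per kb was -0.74. These are descriptions, since a change contains the WT level it is set against.

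**Figure D4:**
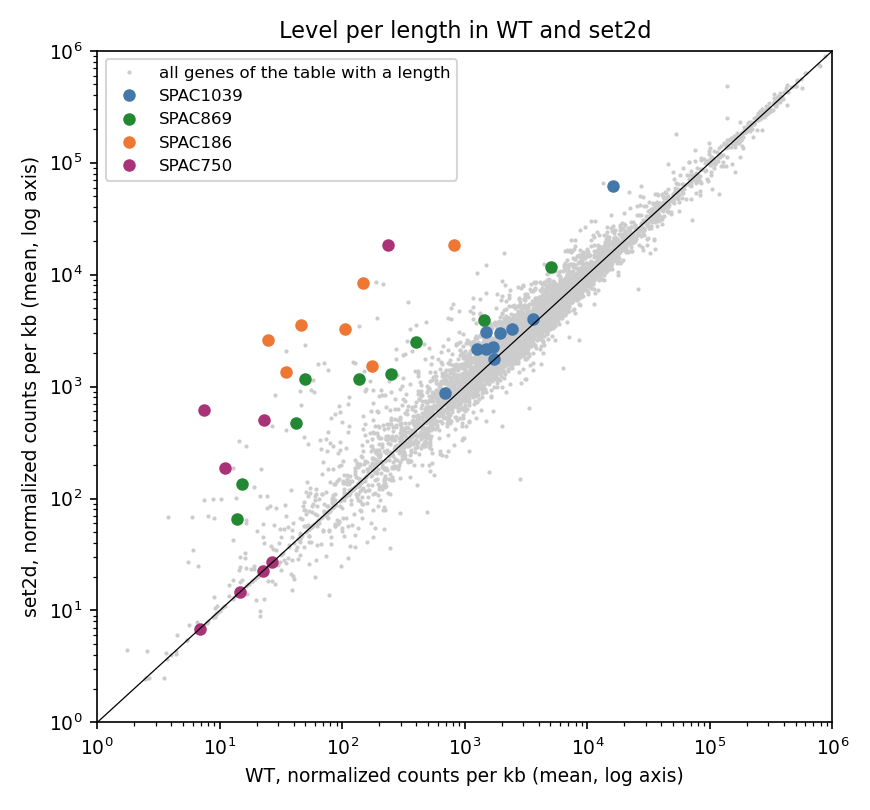
Mean normalized counts per kb in WT (horizontal) and set2d (vertical), both log axes, for 6840 genes (grey) and the members by cosmid (colours), with the line of equal level. Members of SPAC186 and SPAC750 lie far above the line except 4 on it, and SPAC1039 members lie on or just above it, SPAC1039.02 at the upper right.

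Between the members lie other genes of the same stretch. Of the 5 genes left out of the rule, pdc102 (SPAC186.09), for a pyruvate decarboxylase, was 64.1-fold higher, and the log2 change was 2.42 for the adhesin gene pfl9, 1.24 and 1.19 for the amino acid transporter genes isp5 and put4, and 0.22 for cat1, which did not pass. The call of isp5 was lost with either set2d library dropped (adjusted p = 0.0536 and 0.0597). SPNCRNA.1091 overlaps 82.1% of put4. Outwards from gto1 at 0.03, the next coding genes on the cosmid SPAC922 had a median of 0.52 over 6 genes. Of these, 3 were higher and 0 lower, beside 11.6% and 2.77% of all genes tested. Before adjustment 4 and 1 had p under 0.05, and without a trend 2 and 0 were called. The largest change on SPAC922 was 0.95 for the aldehyde dehydrogenase gene SPAC922.07c (limma adjusted p = 0.0081), while SPAC922.04 had a value of -0.69 (adjusted p = 0.096). None of the 3 calls held in every fit with a library dropped: SPAC922.07c had 0.81 (adjusted p = 0.0804) with WT replicate 2 dropped and up to 0.0982 with a set2d library dropped, and SPAC922.05c and SPAC922.06 had adjusted p of 0.0556 to 0.403. After cat1 at 0.22 and put4 at 1.19 follows the first member of SPAC869, at 2.37. Of 23 non-coding RNAs between the first and the last member, 22 were tested. By limma 10 were higher and 0 lower, beside 11.6% and 2.77% of all genes tested. For these RNAs, 12 and 0 had p under 0.05 before adjustment, and 8 and 0 were called without a trend. Beyond the innermost member, the purine transporter gene SPAC29B12.14c was at 5269 and 4785 in WT and at 6197 and 6751 in set2d (0.37, SE 0.14, adjusted p = 0.12).

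Most genes tested at the other ends of chromosomes I and II were also higher in set2d. Of coding genes within 100 kb of the right end of I, members and others together, 26 of 29 tested were higher, with a median log2 change of 3.13. The left end of I had 16 of 28 with 1.73, the left end of II 17 of 21 with 3.05, and the right end of II 16 of 20 with 2.52, with 2 lower there and 0 at the other 3 ends. Over 200 kb from any end, 410 of 4674 were higher and 124 lower, with a median of -0.02. No test of a difference between ends was made.

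Among genes for the proteins of this chromatin, clr4 had the largest change. Of 12 genes for telomere-bound and subtelomeric chromatin proteins 3 were higher and 0 lower by limma, beside 11.6% and 2.77% of all genes tested (before adjustment 4 and 0 had p under 0.05, and without a trend 1 and 0 were called). The methyltransferase gene clr4 changed by 1.48 (adjusted p = 0.00041), and SPBC428.07 overlaps 54.2% of it on the opposite strand. The shugoshin gene sgo2, which SPNCRNA.930 covers on the opposite strand, changed by 0.56 (adjusted p = 0.0233), and rif1, for a regulator of telomere length and replication timing, by 0.41 (adjusted p = 0.046). Neither of these calls held with any single library dropped (adjusted p from 0.0586 to 0.201 for sgo2 and from 0.0718 to 0.319 for rif1), under quantile normalization (0.0569 and 0.096) or without a trend (0.0622 and 0.123). The other 9, among them swi6, taz1 and the shelterin genes rap1, poz1, tpz1, pot1 and ccq1, had values from -0.17 to 0.37 and did not pass.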

How the data were processed

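Total RNA was sequenced by Illumina HiSeq. The submitters' processing notes name build ASM294v2 and the tools featureCounts 1.5.0-p1 and STAR 2.5.4b. The sources used here give no normalization method, strand setting or treatment of reads with several matches. The authors' deposited values are log2 of normalized counts with a floor of 10. In set2d replicate 1, 100% of 299 genes between 10 and 100 and of 385 between 100 and 400 fell on whole multiples of 1.062 within a tolerance of 0.012, so the floor is 9.42 reads there. In the other libraries 1 step did not hold at both levels, from 43.7% to 92.4% against 2.56% to 8.17%, and their depth is unknown.

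Names, order, strand, lengths and distance classes came from the ASM294v3 annotation (34 of 34 members matched); because the build differs, no coordinates or sequences are given. Limma 3.58.1 (R 4.3.3) with a mean-variance trend was run on the deposited log2 values of the 6633 genes that exceeded the floor in 2 or more libraries. Tests were two-sided and adjusted by Benjamini-Hochberg over these genes, at a threshold of 0.05, with 2 degrees of freedom from the residuals and 6.16 from the prior. On simulated data for 6633 genes with 200 changed, 10% of changes of 0.5 on the log2 scale, 72% of 1, 94% of 2 and 100% of 4 were recovered, and 4.17% of calls were false. The data themselves gave 767 higher and 184 lower calls, more than the simulation had changed genes, so these rates may not hold for the members. Copies were sought with BLAST 2.17.0 and correlations computed with scipy 1.17.1. Values in all libraries are given for up to 5 tested members per cosmid with the largest change and for members that did not pass; hry1, the SPAC922 genes and the copies were picked once values were known. The members and lists were chosen with earlier results of these data known.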

Additional observations from a re-analysis of the deposited data

How the results depend on the processing

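The number of members higher was 24, and it was 24 under quantile normalization, 23 by limma without a trend, 23 with a pseudocount of 50 and 20 with only genes above the floor in all 4 libraries. It was 20 to 23 with single libraries left out, and 20 of the 24 passed in each of those fits. With no filter on low values it was 15, with 0 on SPAC1039 and 5 on SPAC869, in a fit that takes in genes at the floor in all libraries, whose spread is 0. No member was lower under any of these settings. On SPAC1039 the count of 4 was 2 to 3 with single libraries left out. On SPAC750 it was 1 of 4 with only genes above the floor in all 4 libraries, which leaves 3 untested. The median log2 change was 2.29 with no filter, 2.51 with that stricter filter, 1.96 with a pseudocount of 50 and 2.63 to 2.99 with single libraries left out. The change of gto1, which did not pass, was -0.04 under quantile normalization and -0.03 to 0.10 with single libraries left out. Under quantile normalization the median of all genes was -0.075. The fit with a replicate block called 27 members, 7 of them on SPAC1039, where SPAC1039.04, SPAC1039.06 and mmf2 were added (adjusted p = 0.00654, 0.00208 and 0.00464). The deviations of same-numbered libraries from their group means correlated at 0.451, and the titles of each number share a prefix whose meaning the labels do not give. A fit without 1 library assumes that the lone library of its group varies like the others. Depth is unknown in all libraries but set2d replicate 1, so the counting error of low WT values cannot be given. Of 6 members with a WT mean under 100 and above the floor, WT replicate 1 was above WT replicate 2 in 6.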
